A study of Mus musculus with 84 samples.

Results

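Serotonin receptor genes were followed in the nuclear RNA of frontal cortex neurons after a single dose of DOI (2,5-dimethoxy-4-iodoamphetamine), a psychedelic amphetamine that activates the receptor encoded by Htr2a. The 10 genes Htr1a, Htr1b, Htr1d, Htr1f, Htr2a, Htr2c, Htr3a, Htr4, Htr5a and Htr7 were taken from a list of symbols and matched to Ensembl gene IDs. All 10 were found among the 55401 IDs counted, and all 10 passed the filter on low counts that left 17941 genes for testing. The mice were of the strain 129S6/SvEvTac and 12 weeks old. One group had received vehicle, and the other groups were sampled 24 h, 48 h or 7 days after DOI. RNA of 4 mice per group was available, with 2 libraries per mouse, which gave 16 mice and 32 libraries. Nuclei positive for NeuN, a protein of neuronal nuclei, had been sorted from each frontal cortex, so the counts describe nuclear transcripts of a neuron-enriched fraction and not receptor protein. Chromatin samples of the same series were not analysed here.

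Serotonin receptors fall into classes by the signal they pass on. The products of Htr2a and Htr2c act through the G protein Gq and phospholipase C. The products of Htr1a, Htr1b, Htr1d, Htr1f and Htr5a act mainly through Gi and Go, which dampen adenylyl cyclase and open potassium channels, while those of Htr4 and Htr7 act through Gs, which stimulates adenylyl cyclase. Htr3a alone encodes a subunit of a ligand-gated cation channel. In the frontal cortex Htr2a is best known from pyramidal neurons, and its product is the site at which DOI and other psychedelics produce their behavioural effects.

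Both libraries of each mouse were added up, and levels are given as CPM, that is counts scaled to a common total with TMM factors. The vehicle mice held 9151680 to 11517452 counts each, more than any mouse sampled at 24 h (6441396 to 8090559 counts) or at 48 h (5834248 to 7344355 counts), while the mice of the 7 days group held from 6972577 to 12354785. At these depths 3 counts correspond to 0.254 to 0.502 CPM. The share of counts on an 18S ribosomal RNA pseudogene, CT010467.1, lay between 0.00694% and 0.0101% in the vehicle mice. It lay between 0.328% and 1.57% at 24 h and reached 0.523% to 1.66% at 48 h. At 7 days mice 2 and 4 had shares of 0.633% and 0.474%, like the earlier DOI mice, and mice 1 and 3 had 0.00834% and 0.00607%, near vehicle. The summed level of 12 markers of cortical excitatory neurons separated the groups in the same way, with 702 to 765 CPM in vehicle against 1188 to 2609 CPM at 24 h, 1674 to 2392 CPM at 48 h and a wide spread of 620 to 1659 CPM at 7 days, and none of the 12 was at 0 in a whole group. Its members did not move as one: at 24 h Camk2a (log2 fold change 2.96), Cux2 (1.57) and Tbr1 (0.83) passed as higher and Tle4 (-0.84) as lower, and the median of the 12 was 0.38. The share of counts on mitochondrial genes was 0.0171% to 0.0701% in vehicle and 0.0621% to 0.268% in the mice at 24 h and 48 h. The 18S and mitochondrial shares were used as covariates in alternatives given below; the part of the excitatory markers in the receptor results was not tested. As sums, neuron markers far exceeded those of other cells. The 3 general neuron markers summed to at least 3182 CPM in every mouse. Oligodendrocyte markers reached at most 341 CPM, astrocyte markers 198 CPM, microglia markers 111 CPM and endothelial markers 5.03 CPM. Most of the neuron sum came from Snap25 and Syt1. Rbfox3, the gene of NeuN, had 46.3 to 115 CPM, below the oligodendrocyte sum of every mouse. In bulk RNA, fewer nuclei of a type and less RNA per nucleus cannot be told apart.

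Promoter sequence is shown for the 3 genes that passed the edgeR test against vehicle given below and have a usable window. These were Htr2a and Htr1a, which were lower at 24 h, and Htr2c, which was higher at 48 h. Each stretch runs 5′ to 3′ on the gene's strand and ends before the annotated transcription start in both RefSeq and the count files (RefSeq, GRCm38.p6). A RefSeq promoter entry was matched for 8 of the 10 genes. Capitals mark the matches found.
Htr2a promoter, chr14:74640624-74640839, plus strand: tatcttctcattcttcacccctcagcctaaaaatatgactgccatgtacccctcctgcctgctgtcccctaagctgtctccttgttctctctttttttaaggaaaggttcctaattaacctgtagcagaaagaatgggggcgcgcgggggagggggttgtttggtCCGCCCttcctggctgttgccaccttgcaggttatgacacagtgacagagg
Htr1a promoter, chr13:105443443-105443638, plus strand: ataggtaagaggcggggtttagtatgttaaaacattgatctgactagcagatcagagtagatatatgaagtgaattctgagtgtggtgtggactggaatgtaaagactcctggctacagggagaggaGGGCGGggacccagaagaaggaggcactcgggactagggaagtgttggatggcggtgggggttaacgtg
Htr2c promoter, chrX:146962263-146962463, plus strand: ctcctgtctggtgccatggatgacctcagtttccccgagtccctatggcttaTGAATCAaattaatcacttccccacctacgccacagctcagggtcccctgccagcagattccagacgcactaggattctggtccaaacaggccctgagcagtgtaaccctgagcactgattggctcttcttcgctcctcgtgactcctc

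Motifs of 5 kinds were searched on both strands of these windows: the GC box GGGCGG, the AP-1 site TGANTCA, the cyclic AMP response element TGACGTCA, the NR4A site AAAGGTCA and the EGR site GCGTGGGCG. The Htr2a window held 1 GC box, on the minus strand and therefore printed as its reverse complement. The Htr1a window also held 1 GC box. GGGCGG occurred in 27.9% of all RefSeq promoter windows of the Htr2a length and in 23.9% of those of the Htr1a length. The Htr2c window held 1 AP-1 match, a motif present in 5.59% of windows of that length. These matches are descriptions of the letters only.

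In the vehicle mice 2 receptor genes stood well above the others. Levels of different genes were compared per kilobase of exon. Htr2a had the highest level, 23.5 ± 2.06 CPM per kb (SD, n = 4), and Htr1f was next with 19.7 ± 3.12 CPM per kb (SD, n = 4), and their mice overlapped. Htr1a followed with 5.09 ± 1.00 CPM per kb and Htr3a with 4.63 ± 1.92 CPM per kb, each below every Htr1f value and overlapping each other. Htr5a (2.67 CPM per kb), Htr7 (1.89 CPM per kb), Htr2c (1.33 CPM per kb), Htr1b (0.683 CPM per kb), Htr4 (0.643 CPM per kb) and Htr1d (0.355 CPM per kb) formed a lower series in which each gene overlapped the next. Htr2a and Htr1f thus carried most of the receptor signal: of the summed per-length level of the 10 genes, Htr2a made up 39.0% ± 4.54 and Htr1f 32.4% ± 3.88 (SD, n = 4).

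After DOI the first and second places were exchanged. At 24 h Htr1f had 24.3 ± 6.73 CPM per kb and Htr2a 11 ± 3.97 CPM per kb (SD, n = 4), with no overlap of their mice. Htr1f also had the higher mean at 48 h (24.9 against 13.6 CPM per kb) and at 7 days (21.3 against 18.7 CPM per kb), but there the mice of these genes overlapped. The share of Htr2a in the summed level was 20.6% ± 6.79 at 24 h, 23.8% ± 7.63 at 48 h and 32.2% ± 6.07 at 7 days. Htr1a, at rank 3 in vehicle, was at rank 7 at 24 h, rank 6 at 48 h and rank 5 at 7 days, while Htr5a was at rank 3 in every DOI group, and in these groups both overlapped the gene ranked next. Htr1d was last in all groups.

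**Figure D1:**
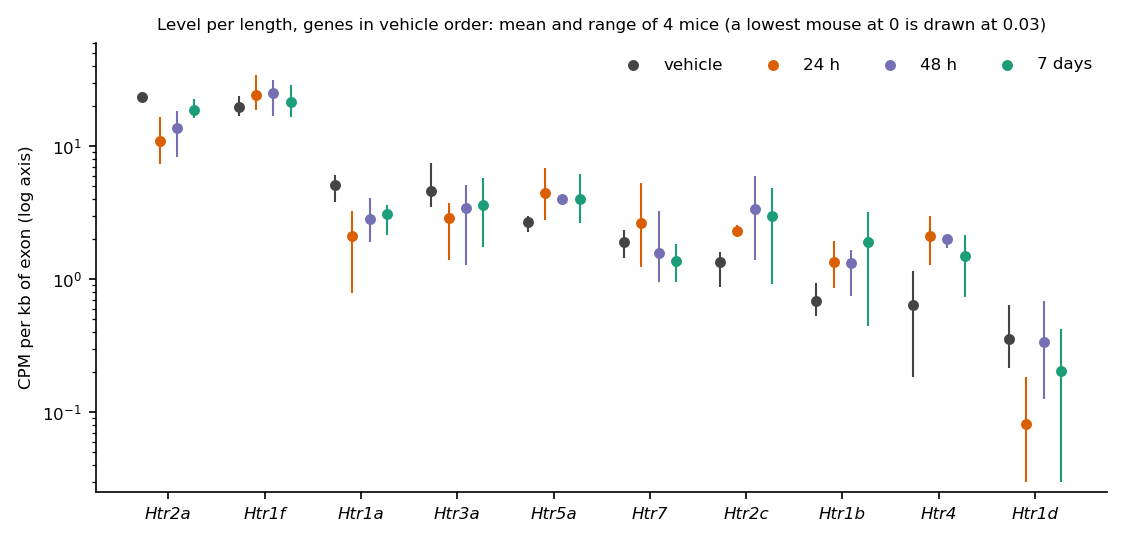
Level of each receptor gene per kilobase of exon (CPM per kb, log axis) in the 4 groups, with genes in the order of the vehicle means; points are means and lines the range of 4 mice, with a lowest mouse at 0 drawn at the foot of its line. Htr2a and Htr1f lie above the other genes in every group, and the Htr2a point at 24 h (11) is below the Htr1f point (24.3) with no shared range.

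Which receptor genes differed from vehicle was tested with edgeR's quasi-likelihood model over all 17941 genes, and a gene was called where its Benjamini-Hochberg adjusted p was below 0.05. At 24 h, 3 of the 10 genes passed, against 24.2% of all genes tested: Htr2a and Htr1a were lower (10.4% of all genes were lower) and Htr4 was higher (13.8% were higher). At 48 h, 3 of 10 passed against 30.1% of all genes: Htr2a was lower (13.3% lower) and Htr4 and Htr2c were higher (16.8% higher). At 7 days 0 of 10 passed, as did 0% of all genes. There 3 of the 10 and 3012 of all genes had an unadjusted p below 0.05 in edgeR, and DESeq2 called 796 genes with 1 of the 10, Htr1b, among them. The share of receptor genes called was thus near that of all genes at both early times. Their median log2 fold change was 0.39 at 24 h, 0.13 at 48 h and -0.11 at 7 days, beside 0.03, 0.02 and 0.02 over all genes. With the 18S pseudogene share of each mouse as a covariate 0 of 10 receptor genes passed at 24 h and at 48 h, and so did 0 of all 17941 genes. With the mitochondrial share 0 of 10 passed at both times, beside 264 of all genes at 24 h and 0 at 48 h.

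**Figure D2:**
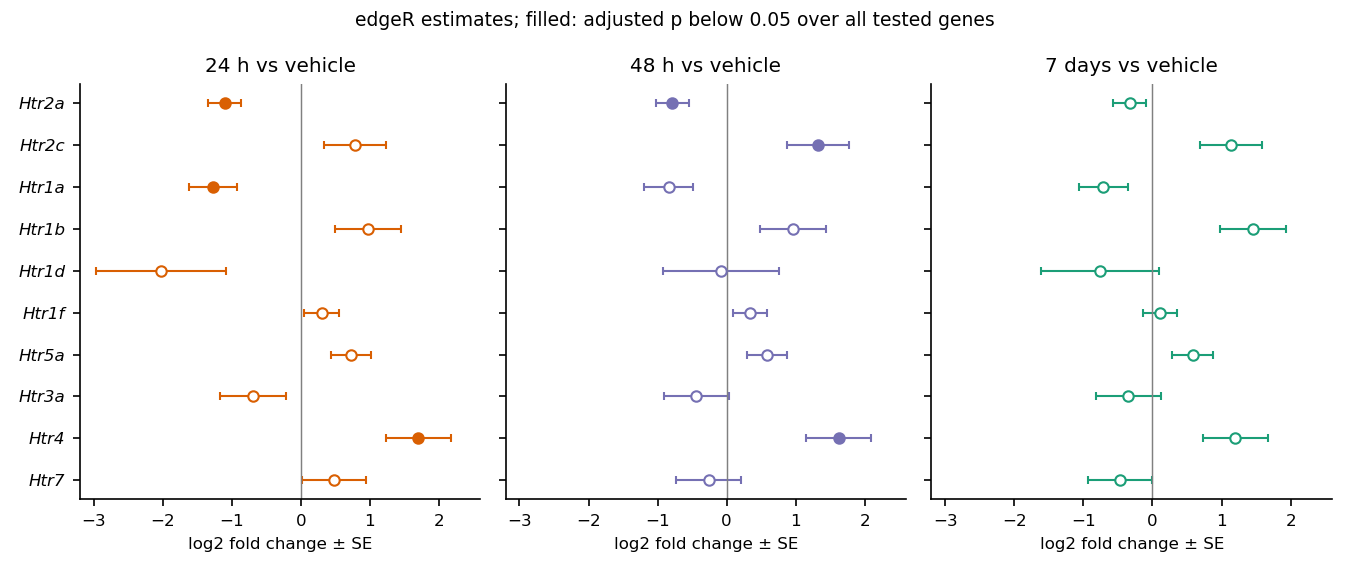
Log2 fold change of each receptor gene against vehicle at 24 h, 48 h and 7 days, from edgeR, with bars of 1 SE; filled points had an adjusted p below 0.05 over all genes tested. Htr2a lies at -1.10, -0.79 and -0.33, while Htr4 lies at 1.70, 1.62 and 1.20.

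Htr2a, the gene for the receptor DOI acts on (ENSMUSG00000034997, chr14:74640840-74709494, 3 exons on the plus strand), was lower after DOI and closer to vehicle at 7 days. The vehicle mice had 122, 143, 122 and 141 CPM. The mice at 24 h had 41.4, 55.7, 93.3 and 55.3 CPM, and those at 48 h had 102, 46.2, 75.7 and 79.9 CPM. Every mouse at 24 h and 48 h was below every vehicle mouse, with mouse 3 at 24 h and mouse 1 at 48 h nearest to them. At 7 days the mice had 127, 102, 91.2 and 97.7 CPM, and mouse 1 of this group lay within the vehicle range. Some neuron markers were lower as well: Snap25 had 2278, 2508, 3547 and 2621 CPM at 24 h beside 3717 to 4334 CPM in vehicle. In edgeR Snap25 and Gad1 passed as lower at 24 h and 48 h, and Gad2 at 24 h. Of the same marker lists Rbfox3 and Slc32a1 passed as higher at both times, and Cck at 24 h. The part of these markers in the Htr2a result was not tested.

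Htr2a fell to 0.466 of the vehicle level at 24 h (log2 fold change -1.10 with an SE of 0.24, adjusted p = 0.00536 in edgeR) and to 0.576 of it at 48 h (log2 fold change -0.79 with an SE of 0.24, adjusted p = 0.0200 in edgeR). At 7 days the estimate was -0.33 (SE 0.24, edgeR adjusted p = 0.503). Htr2a was the only one of the 10 genes to pass the edgeR test for any difference among the 4 groups (adjusted p = 0.0147), which 18.8% of all genes passed; DESeq2 called 3 of the 10 there, and 5129 of all 17941 genes. It had 272 to 1505 counts per mouse and a median difference of 0.16 on the log2 scale between the 2 libraries of a mouse. Leaving out a mouse ended the call at 48 h in 2 cases: without vehicle mouse 2 the adjusted p was 0.0502, and without 48 h mouse 2 it was 0.0698, with log2 fold changes of -0.77 and -0.62. With the mitochondrial share as a covariate the estimates were -1.10 at 24 h (edgeR adjusted p = 0.0517) and -0.79 at 48 h (adjusted p = 0.426). With the 18S share they were -1.20 (adjusted p = 0.961) and -0.90 (adjusted p = 0.996).

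**Figure D3:**
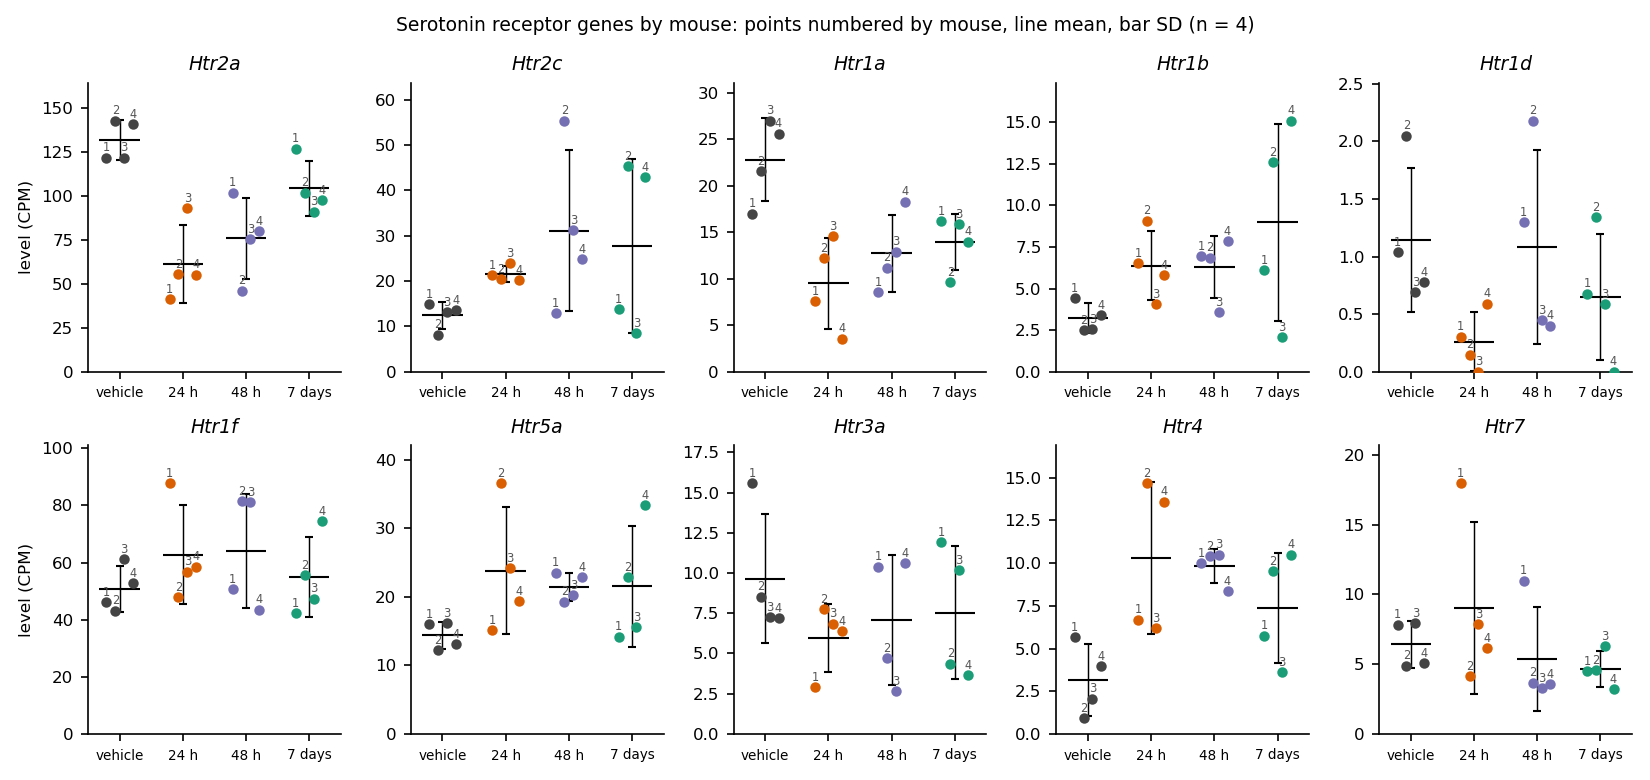
Level of each receptor gene (CPM, axis from 0) in every mouse of the 4 groups; points are numbered by mouse, the line is the mean and the bar the SD of 4 mice. All Htr2a values at 24 h and 48 h lie below the lowest vehicle value of 122 CPM, and Htr2c at 7 days splits into mice 2 and 4 (45.3 and 43.0 CPM) and mice 1 and 3 (13.8 and 8.52 CPM).

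Htr2c, the other Gq-coupled receptor gene and one whose RNA is edited in the brain (ENSMUSG00000041380, chrX:146962513-147197277, 8 exons on the plus strand), took the opposite direction. The vehicle mice had 14.9, 8.19, 13.1 and 13.6 CPM. The mice at 24 h had 21.3, 20.5, 24.0 and 20.2 CPM, and those at 48 h had 13.0, 55.4, 31.3 and 24.9 CPM. All 4 mice at 24 h were above all vehicle mice, while at 48 h mouse 1 lay inside the vehicle range and mouse 2 stood far above the rest. The mice at 7 days had 13.8, 45.3, 8.52 and 43.0 CPM, with mice 2 and 4 high and mice 1 and 3 at the vehicle level.

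Htr2c rose at 48 h, to 2.49 times the vehicle level (log2 fold change 1.32 with an SE of 0.45, adjusted p = 0.0355 in edgeR). The estimates at 24 h (0.79, SE 0.45, edgeR adjusted p = 0.206) and at 7 days (1.14, SE 0.45, edgeR adjusted p = 0.211) did not pass. The former passed with voom (adjusted p = 0.0494) and with only the groups compared (adjusted p = 0.012), and the latter with no filter on low counts (adjusted p = 0.0279). The 48 h call depended on single mice: it was lost when any of 6 of the 8 mice was left out, with adjusted p from 0.0607 to 0.163, and without 48 h mouse 2 the log2 fold change was 0.89. It was also lost with the mouse number as a block (1.16, adjusted p = 0.0749) and with library 2 of each mouse alone (1.21, adjusted p = 0.0565). With the mitochondrial share as a covariate the 48 h estimate was 0.29 (adjusted p = 0.895), and with the 18S share its sign turned (-0.27, adjusted p = 0.996). The gene holds 8 small RNA features within its introns, which shared 0 exon bases with it.

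Within the 48 h and 7 days groups the mice highest in Htr2c were also highest in summed markers of striatal projection neurons, a cell type that lies beneath the frontal cortex and expresses Htr2c and Htr1b. The summed level of 10 such markers was 383 to 471 CPM in the vehicle mice and 305 to 368 CPM at 24 h. At 48 h it was 391, 741, 392 and 580 CPM in mice 1 to 4, and mouse 2, highest in this sum, was also highest in Htr2c. At 7 days it was 730, 2083, 464 and 1553 CPM, so that mice 2 and 4 were high in both. Rgs9, a striatum-rich regulator of G protein signalling, had 127 and 126 CPM in these mice beside 4.78 to 8.25 CPM in vehicle, and Drd1, a dopamine receptor gene, had 126 and 97.4 CPM beside 35.4 to 45.8 CPM. Adora2a, an adenosine receptor gene of the indirect pathway neurons, was at 0 in 3 of the 4 vehicle mice and reached 6.39 CPM in 7 days mouse 2. Of the 10 markers Ppp1r1b and Rarb did not set these mice apart: Ppp1r1b had 72.6 and 46.3 CPM in 7 days mice 2 and 4 beside 70.5 and 48.5 CPM in mice 1 and 3, and Rarb had 4.03 and 4.62 CPM beside 6.44 and 5.37 CPM. Mice 2 and 4 at 7 days were high in other sums as well. Their cortical excitatory markers summed to 1659 and 1548 CPM beside 731 and 620 CPM in mice 1 and 3. Their inhibitory markers summed to 4705 and 4142 CPM beside 3337 and 2448 CPM. Of all genes tested, 65.1% set mice 2 and 4 apart from mice 1 and 3, so this split is not particular to striatal markers. The part of striatal nuclei in the Htr2c result at 48 h was not tested. The choroid plexus is another known site of strong Htr2c expression. Its 4 markers summed to between 0.979 and 9.14 CPM over the 16 mice, and their part in the result was not tested. At 24 h, where the summed markers were below every vehicle mouse, the 4 Htr2c values were above every vehicle mouse. The markers differed among themselves there. Of the 9 tested, Drd1 and Ppp1r1b passed as lower in edgeR and 0 passed as higher (10.4% and 13.8% of all genes). Penk, a neuropeptide gene, had 67.9 to 161 CPM beside 102 to 237 CPM in vehicle. Rgs9 had 8.53, 14.0, 11.3 and 20.4 CPM and was, like Htr2c, above every vehicle mouse, but it did not pass.

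**Figure D4:**
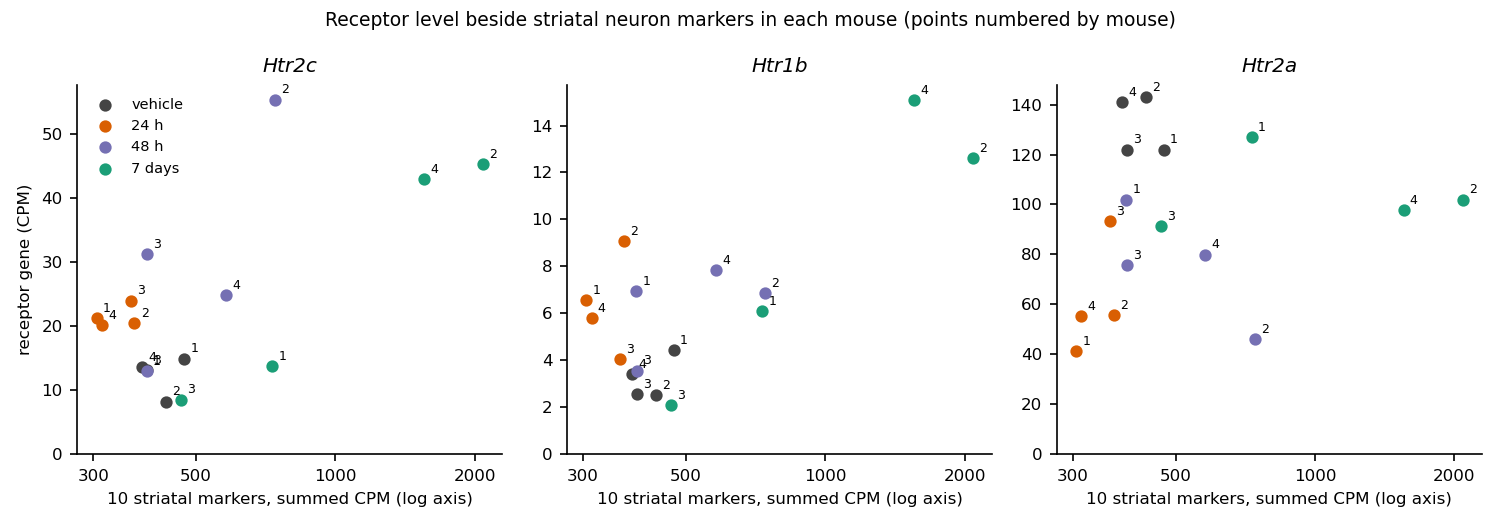
Level of Htr2c, Htr1b and Htr2a (CPM, axis from 0) beside the summed level of 10 striatal projection neuron markers (CPM, log axis) in each of the 16 mice; points are numbered by mouse and coloured by group. Mice 2 and 4 at 7 days (2083 and 1553 CPM of markers) have the 2 highest Htr1b values and 2 of the 3 highest Htr2c values, and the 24 h mice lie furthest left.

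The balance of the Gq-coupled pair was also measured within each mouse, where it does not depend on library size. Per exon length, Htr2a exceeded Htr2c 13.5, 28.8, 15.5 and 17.2 times in the vehicle mice. The ratio was 3.23, 4.50, 6.47 and 4.54 at 24 h and 13.0, 1.39, 4.02 and 5.34 at 48 h, and neither group overlapped vehicle, although 48 h mouse 1 came close. At 7 days it was 15.3, 3.76, 17.7 and 3.78, again with mice 2 and 4 apart from mice 1 and 3. The mean log2 ratio differed from vehicle by -1.98 at 24 h and by -2.02 at 48 h, each with p = 0.0286 in a two-sided exact permutation test, the smallest value that 4 mice against 4 can give. Adjusted over the 6 ratio comparisons made, both exact p-values were 0.0857. At 7 days the difference was -1.19 (exact permutation p = 0.229, adjusted 0.343).

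**Figure D5:**
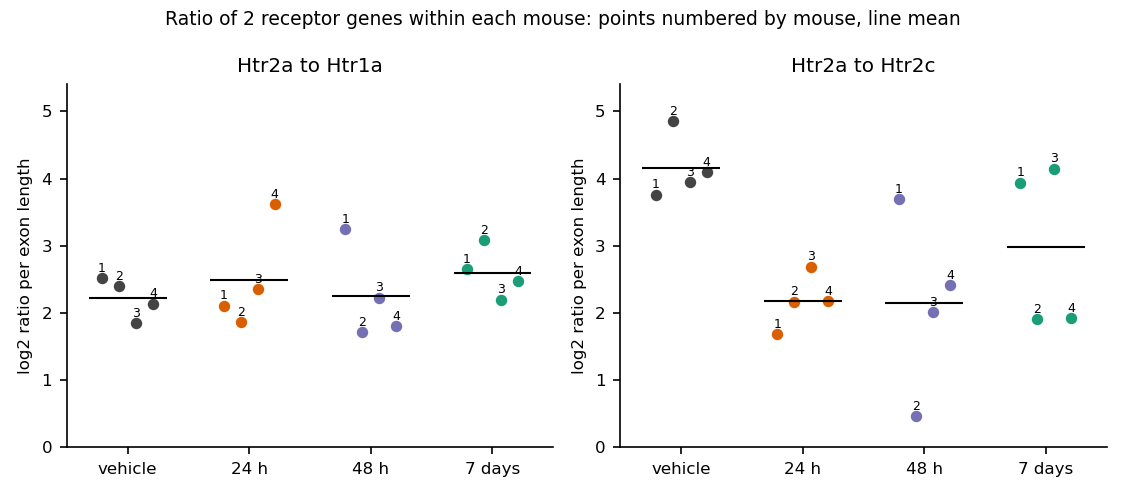
Log2 ratio per exon length of Htr2a to Htr1a (left) and of Htr2a to Htr2c (right) in each mouse, numbered, with the group mean as a line. The Htr2a to Htr2c means are 4.17 in vehicle, 2.18 at 24 h and 2.15 at 48 h, while the Htr2a to Htr1a groups overlap throughout.

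Among the Gi- and Go-coupled receptors, Htr1a was lower after DOI. Htr1a encodes the main inhibitory serotonin receptor of cortical neurons and lies in a single exon (ENSMUSG00000021721, chr13:105443639-105448122, plus strand). The vehicle mice had 17.0, 21.6, 27 and 25.6 CPM. The mice at 24 h had 7.62, 12.2, 14.6 and 3.55 CPM, all below vehicle. At 48 h the values were 8.55, 11.2, 12.9 and 18.3 CPM, where mouse 4 entered the vehicle range, and at 7 days they were 16.2, 9.64, 15.9 and 14.0 CPM, all below it.

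Htr1a fell to 0.416 of the vehicle level at 24 h (log2 fold change -1.27 with an SE of 0.35, adjusted p = 0.0167 in edgeR). Its estimates of -0.84 at 48 h (SE 0.35, edgeR adjusted p = 0.0753) and -0.71 at 7 days (SE 0.35, edgeR adjusted p = 0.307) did not pass. The 48 h estimate passed with voom (adjusted p = 0.0275), with library 1 alone (-1.13, adjusted p = 0.0425), with only the groups compared (adjusted p = 0.0209) and without 48 h mouse 4 (-1.08, adjusted p = 0.0444). The 24 h call held without each of the 8 mice in turn, with log2 fold changes from -1.56 to -1.0. With the mitochondrial share as a covariate the 24 h estimate was -1.41 (edgeR adjusted p = 0.0682), and with the 18S share it was -0.79 (adjusted p = 0.961). The within-mouse log2 ratio of Htr2a to Htr1a differed from vehicle by 0.26 at 24 h, 0.02 at 48 h and 0.37 at 7 days, with two-sided exact permutation p-values of 0.771, 0.971 and 0.171, and the sign of the first and second differences turned when single mice were left out.

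Htr1b encodes a receptor of axon terminals, where it reduces transmitter release (ENSMUSG00000049511, chr9:81628291-81633828, minus strand). The vehicle mice had 4.44, 2.50, 2.55 and 3.41 CPM, those at 24 h 6.55, 9.08, 4.06 and 5.80 CPM, and those at 48 h 6.95, 6.86, 3.56 and 7.84 CPM. At 7 days the values were 6.10, 12.6, 2.10 and 15.1 CPM. All group means were above vehicle, but in each group the lowest mouse lay within or below the vehicle range. The log2 fold changes were 0.97, 0.96 and 1.46, with edgeR adjusted p-values of 0.139, 0.131 and 0.142. With the 18S share as a covariate the sign turned at both early times, to -0.71 at 24 h and -0.80 at 48 h. At 24 h Htr1b passed with voom (adjusted p = 0.0359), thinned counts (adjusted p = 0.0377) and only the groups compared (adjusted p = 0.0428), at 48 h with only the groups compared (adjusted p = 0.048) and at 7 days with DESeq2 (adjusted p = 0.0476). Without 7 days mouse 3, the lowest of its group, the 7 days estimate was 1.80 (edgeR adjusted p = 0.0175) and that of Htr2c was 1.45 (adjusted p = 0.0416), so 2 of the 10 genes then passed at 7 days, as did 1160 of all 18457 genes in that fit. The mice high in Htr1b at 7 days, mice 2 and 4, were those with 2083 and 1553 CPM of striatal markers. Of its exon bases, 852 (18.04%) are shared with an opposite-strand long noncoding RNA, D430036J16Rik, and the counting used no strand option, so the level of Htr1b is uncertain.

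Htr1f, whose product is a Gi-coupled receptor and a target of triptan-class migraine drugs, and Htr5a, the gene of a further Gi-coupled receptor, were higher on average in every DOI group and passed the test in none. Htr1f had 46.1, 43.2, 61.3 and 52.7 CPM in vehicle and 87.9, 47.9, 56.8 and 58.6 CPM at 24 h. It had 50.7, 81.4, 81.2 and 43.5 CPM at 48 h and 42.3, 55.7, 47.4 and 74.4 CPM at 7 days. The groups overlapped, with mouse 1 high at 24 h, mice 2 and 3 at 48 h and mouse 4 at 7 days. Its log2 fold changes were 0.30, 0.34 and 0.11 (SE 0.25 each; edgeR adjusted p at 24 h = 0.375). It was measured most evenly of the 10, with a median difference between libraries of 0.11 on the log2 scale. Htr5a had 16, 12.2, 16.1 and 13.1 CPM in vehicle and 23.5, 19.3, 20.2 and 22.9 CPM at 48 h, with no overlap. At 24 h it had 15.1, 36.6, 24.2 and 19.4 CPM, with mouse 1 inside the vehicle range. The log2 fold changes of Htr5a were 0.73 at 24 h (SE 0.29, edgeR adjusted p = 0.0707), 0.58 at 48 h (edgeR adjusted p = 0.134) and 0.58 at 7 days (edgeR adjusted p = 0.317). The 24 h estimate of Htr5a passed with DESeq2 (adjusted p = 0.0462), with voom, total-count scaling, thinned counts, library 2 alone (1.07, adjusted p = 0.0174) and only the groups compared (adjusted p = 0.0368), and without 24 h mouse 1 (adjusted p = 0.0414). The 48 h estimate passed with only the groups compared (adjusted p = 0.0267).

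Htr1d, the gene of an autoreceptor of axon terminals, was near the limit of detection. It had 7 to 18 counts per vehicle mouse. The mice at 24 h had 0 to 5 counts, those at 48 h had 3 to 13, and those at 7 days had 0 to 12. All mice at 24 h were below all vehicle mice, but 24 h mouse 3 had 0 counts, which allows a level of up to 0.380 CPM. The log2 fold change at 24 h was -2.03 with an SE of 0.94 (edgeR adjusted p = 0.117). With a mouse left out it ranged from -2.85 to -1.62. With voom it was -2.32 and passed (adjusted p = 0.026). Of this gene, 9 of the 32 libraries had 0 counts.

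Htr3a, the channel subunit gene and a marker of a large class of cortical interneurons, did not pass at any time. The vehicle mice had 15.6, 8.53, 7.27 and 7.20 CPM, and mouse 1 stood apart. The mice at 24 h had 2.89, 7.74, 6.85 and 6.39 CPM, those at 48 h 10.4, 4.69, 2.67 and 10.6 CPM and those at 7 days 11.9, 4.37, 10.2 and 3.64 CPM. Groups overlapped at every time. The log2 fold changes were -0.69, -0.44 and -0.35 (edgeR adjusted p = 0.298, 0.504 and 0.734), and without vehicle mouse 1 they were -0.36, -0.10 and -0.02. Vehicle mouse 1 was also the highest of its group in the summed level of 12 inhibitory neuron markers, 4135 CPM beside 3000, 2321 and 2460 CPM, none of them at 0 in a whole group. It was the highest of the 4 vehicle mice in 7 of these markers, with the widest gaps in Sst (934 CPM beside 333 to 497 CPM), Vip (764 CPM beside 267 to 392 CPM) and Cck (761 CPM beside 378 to 462 CPM), and not in the other 5, Lamp5, Pvalb, Adarb2, Lhx6 and Reln. The part of interneuron number in the Htr3a level was not tested.

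Of the Gs-coupled receptor genes, Htr4, whose product raises cyclic AMP in forebrain neurons, was higher after DOI. Htr4 (ENSMUSG00000026322, 10 exons on the plus strand of chromosome 18) had 5.67, 0.910, 2.06 and 3.99 CPM in the vehicle mice. The mice at 24 h had 6.70, 14.7, 6.21 and 13.6 CPM and those at 48 h had 10.0, 10.4, 10.5 and 8.38 CPM. All 8 were above the highest vehicle mouse, with mice 1 and 3 at 24 h close to it and the 4 mice at 48 h close to each other. At 7 days the values were 5.76, 9.53, 3.62 and 10.5 CPM, and mouse 3 lay within the vehicle range.

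Htr4 rose 3.24-fold at 24 h (log2 fold change 1.70 with an SE of 0.47, adjusted p = 0.0163 in edgeR) and 3.08-fold at 48 h (log2 fold change 1.62 with an SE of 0.47, adjusted p = 0.0165 in edgeR). The 7 days estimate was 1.20 (SE 0.47, edgeR adjusted p = 0.206). Counts were low, from 8 per mouse in vehicle to 115 at 24 h. Without 24 h mouse 4 the adjusted p at 24 h was 0.0522, and at 48 h each mouse could be left out without losing the call. With library 2 of each mouse alone, the 48 h estimate was 1.27 (edgeR adjusted p = 0.0552). With the 18S share as a covariate the estimates were 0.39 at 24 h (adjusted p = 0.979) and 0.29 at 48 h (adjusted p = 0.996), and with the mitochondrial share 1.45 (adjusted p = 0.161) and 1.21 (adjusted p = 0.557). Htr4 and Htr2a, the 2 genes called at both 24 h and 48 h, thus differed from vehicle in opposite directions.

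Htr7, the other Gs-coupled receptor gene, had 4.89 to 7.96 CPM in vehicle. Its range was 4.17 to 18 CPM at 24 h, 3.26 to 11 CPM at 48 h and 3.22 to 6.30 CPM in the 7 days mice. The groups overlapped, and 1 mouse was high at each early time, mouse 1 at 24 h with 18 CPM and mouse 1 at 48 h with 11 CPM. The log2 fold changes were 0.48, -0.26 and -0.47 (edgeR adjusted p = 0.458, 0.703 and 0.639), and without 24 h mouse 1 the first was -0.08. Htr7 was also the least repeatable gene between libraries, with a median difference of 0.62 on the log2 scale.

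Separation of the individual mice from vehicle was counted as well. At 24 h, 5 of the 10 genes had no overlap with vehicle (35.7% of all genes): Htr2a, Htr1a and Htr1d lower (17.2% lower) and Htr2c and Htr4 higher (18.5% higher). At 48 h there were 3 of 10 (38.1% of all genes), Htr2a lower (19.0% lower) and Htr4 and Htr5a higher (19.2% higher). At 7 days Htr1a was the only such gene (1 of 10, against 5.85% of all genes), and it was lower (3.04% lower), while 0 of 10 were higher (2.81% higher). In the 7 days group mice 2 and 4 were both above mice 1 and 3 in Htr2c, Htr1b, Htr1f, Htr5a and Htr4 and both below them in Htr1a and Htr3a, while for Htr2a, Htr7 and Htr1d the 4 mice were not ordered in this way. These 7 of 10 genes compare with 65.1% of all genes tested (32.8% with mice 2 and 4 above and 32.3% with them below), so the share of receptor genes was near that of all genes. Mice 2 and 4 were also those with 18S shares of 0.633% and 0.474%, against 0.00834% and 0.00607% in mice 1 and 3. With this share as a covariate 0 of 10 receptor genes passed at 7 days, as without it.

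The DOI groups were also compared with each other. Between 48 h and 24 h 0 of the 10 genes passed in edgeR (0% of all genes), 0 had an unadjusted p below 0.05, and 0 passed with DESeq2. Between 7 days and 24 h 0 of 10 passed, against 0.00557% of all genes. There Htr2a alone had an unadjusted p below 0.05 (0.00484), with a log2 fold change of 0.77 (SE 0.24, edgeR adjusted p = 0.179), and 1 of the 9 receptor genes tested passed when the 32 libraries were fitted with the mouse as a random effect, as did 955 of all 15613 genes, against 0 receptor genes with DESeq2. Between 7 days and 48 h 0 of 10 passed in edgeR (0% of all genes), 0 had an unadjusted p below 0.05 and 0 passed with DESeq2. A difference in size between the 24 h, 48 h and 7 days responses of the receptor genes was therefore not shown.

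Of 4 further serotonin receptor genes, Htr2b, Htr5b and Htr6 were tested. Htr2b, also Gq-coupled, rose from 1.13 ± 0.602 CPM in vehicle to 4.92 ± 1.67 CPM at 24 h and 6.04 ± 0.424 CPM at 48 h (SD, n = 4). Its log2 fold changes were 2.11 (SE 0.67, edgeR adjusted p = 0.0301) and 2.4 (SE 0.68, edgeR adjusted p = 0.0141), on 4 to 54 counts per mouse. At 7 days Htr2b had 0.339, 3.59, 1.40 and 8.68 CPM, with mice 2 and 4 high (log2 fold change 1.60, edgeR adjusted p = 0.235). Htr5b and Htr6 had mean levels of 1.5 to 2.69 CPM in all groups and did not pass at any time. Htr3b had 0 counts in every vehicle mouse and was too low to test.

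Genes around the receptors were read from lists drawn up with the receptor genes. Beside each count stand the shares over all genes, 13.8% higher and 10.4% lower at 24 h and 16.8% higher and 13.3% lower at 48 h, and the median log2 fold changes of all genes, 0.03 and 0.02. The lists hold 4 to 14 genes, and nothing particular to a list is read from its count. The Gq side (12 genes for Gq subunits, phospholipase C, calcium release and protein kinase C) had 1 gene lower and 0 higher at 24 h and at 48 h, where 24.2% and 30.1% of all genes were called, with a median log2 fold change of 0.01 and -0.12. That gene was Prkcb, a protein kinase C activated downstream of the Htr2a product, which fell from 645 ± 40.6 CPM to 427 ± 73.1 CPM at 24 h (SD, n = 4; log2 fold change -0.60, edgeR adjusted p = 0.0187). Gnaq, the Gq subunit, had log2 fold changes of 0.18 and 0.37 and Plcb1, the main cortical phospholipase C beta, of -0.11 and -0.31, and neither passed.

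The Gi and Go side (8 genes) had 3 genes higher and 0 lower at 24 h (13.8% and 10.4% of all genes) and 3 higher and 1 lower at 48 h (16.8% and 13.3%), with medians of 0.32 and 0.34 on the log2 scale. Gnao1, the Go subunit, rose from 44.4 ± 4.96 CPM to 109 ± 7.67 CPM at 24 h and 118 ± 10.0 CPM at 48 h (SD, n = 4; edgeR adjusted p = 0.00308 and 0.00173). Kcnj6, a potassium channel opened by Gi-coupled receptors, rose from 7.06 ± 1.43 CPM to 25.8 ± 2.48 CPM and 35.9 ± 10.3 CPM (edgeR adjusted p = 0.00329 and 0.00155). Gnai2 was higher at both times, and Gnai3 was lower at 48 h (log2 fold change -0.97, edgeR adjusted p = 0.0163). On the Gs side (14 genes), 2 genes were higher and 1 lower at 24 h, near the shares of all genes, and 4 were higher and 1 lower at 48 h, with medians of 0.19 and 0.34. There Pde4d, which breaks down cyclic AMP, and Adcy1, which makes it, rose (log2 fold changes at 24 h 1.44 and 0.52, edgeR adjusted p = 0.0075 and 0.0201), and Adcy2, another adenylyl cyclase, fell (-0.79, edgeR adjusted p = 0.0136).

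Among 14 genes for receptor binding partners and trafficking, 3 were higher and 1 lower at 24 h (24.2% of all genes were called in either direction) and 6 were higher and 1 lower at 48 h (30.1% of all genes), with median log2 fold changes of 0.37 and 0.50. Grk2, a kinase that desensitises G protein-coupled receptors, rose from 10.2 ± 2.26 CPM to 41.0 ± 5.86 CPM at 24 h and 39.7 ± 9.63 CPM at 48 h (SD, n = 4; edgeR adjusted p = 0.00153 at both). Dlg4, the postsynaptic scaffold that binds the tail of the Htr2a product, rose from 28.1 ± 2.43 CPM to 55.6 ± 10.1 CPM and 62.3 ± 12.8 CPM (edgeR adjusted p = 0.0178 and 0.00704). Ric3, a chaperone of ligand-gated channels that include the Htr3a product, fell from 224 ± 18.4 CPM to 129 ± 23.0 CPM and 130 ± 26.9 CPM (edgeR adjusted p = 0.0104 and 0.00891). Snx27, a sorting factor of the receptor recycling route, was higher at both times.

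Of 4 genes linked to the editing of Htr2c RNA, 2 were higher and 0 lower at both 24 h and 48 h (13.8% and 16.8% of all genes were higher), with median log2 fold changes of 0.71 and 0.87. Adar, an adenosine deaminase that edits Htr2c transcripts, rose from 10.0 ± 2.62 CPM to 51.5 ± 19.3 CPM at 24 h and 63.4 ± 22.4 CPM at 48 h (SD, n = 4; edgeR adjusted p = 0.0029 and 0.00158). Snhg14, the host transcript of small nucleolar RNAs of which one family is complementary to Htr2c, rose from 112 ± 51.6 CPM to 290 ± 66.0 CPM and 352 ± 34.7 CPM (edgeR adjusted p = 0.0224 and 0.00778). Adarb1, a further editing enzyme of Htr2c, had log2 fold changes of 0.04 and 0.10 and did not pass. Editing itself cannot be read from gene counts. Of 8 genes of serotonin synthesis, transport and breakdown, 4 were tested, and 1 was lower at 24 h and 2 at 48 h (10.4% and 13.3% of all genes were lower). Maoa, which breaks serotonin down, fell from 29.1 ± 3.02 CPM to 17.1 ± 1.39 CPM at 24 h and 16.2 ± 6.21 CPM at 48 h (SD, n = 4; edgeR adjusted p = 0.0378 and 0.0214). Maob was lower at 48 h (log2 fold change -1.12, edgeR adjusted p = 0.0451). At 7 days these lists, like all genes, held 0 edgeR calls.

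The genes whose levels ran most like Htr2a were looked for among 9964 genes of moderate or high level. Over the 16 mice the 5 highest Pearson correlations of log2 CPM with Htr2a were those of Ccdc127 (0.94), Fem1b (0.93), Hmgb1 (0.92), Neto2 (0.92) and Kcnv1 (0.92). They were picked for this likeness, so a group pattern shared with Htr2a is no separate result. All 5 had their highest mean in vehicle and a lower one at 24 h, as Htr2a did. Neto2, an auxiliary subunit of kainate receptors, had means of 240, 89.7, 107 and 182 CPM in vehicle and at 24 h, 48 h and 7 days. Once the group means were taken out, the highest correlations over the 16 mice were those of Gmps (0.92), Ccpg1os (0.91), Ankrd26 (0.89), Hivep2 (0.89) and Msl3 (0.88). The mice share libraries and scaling across genes, and these values are descriptions.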

How the data were processed

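The values analysed are raw counts per Ensembl gene from 32 RNA libraries of sorted neuronal nuclei; per the file headers, the authors made these counts with featureCounts 2.0.0 over exons of a GRCm38 annotation, with no strand, read-pair or multi-mapping option. The submitters' processing notes name Trim Galore 0.6.5, Bowtie2 2.4.1 and mm10 for the series; the RNA aligner is not given in the sources used here. Reads shared between exons of overlapping genes are dropped by that tool's defaults, and without strand an antisense transcript counts toward its partner. Of 55401 IDs, 55141 had a symbol. The header group of every library was that of its label; 3 mice carried mouse number 6 in the header (24 h mouse 1, 48 h mouse 2, 7 days mouse 2), and the labels' numbers were used.

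The 2 libraries of a mouse were summed. Library totals were 2763704 to 7436451 counts. Without molecular identifiers, floors cover counting error only. Genes were filtered with filterByExpr (minimum count 10), scaled with TMM and fitted in a single edgeR 4.0.16 quasi-likelihood model of the 16 mice (R 4.3.3), with Benjamini-Hochberg adjustment over all tested genes at 0.05, a step tested on simulated data. CPM are relative to TMM-scaled library sizes of the tested genes. Each SE was taken as the log2 fold change over the root of its F statistic. Ratios of genes used a pseudocount of 0.5 and two-sided exact permutation tests (Python 3.11.15, numpy 2.4.6). Alternatives were DESeq2 1.42.0, limma 3.58.1 voom with quality weights, other scaling and filters, each library alone, 32 libraries with duplicateCorrelation, the mouse number as a block, fits of the compared groups alone, thinned counts, 2 covariates and each mouse left out. Named genes were all 10 members, the 5 most like Htr2a by each of 2 measures, and up to 3 called genes of smallest p in each pathway list, with defining markers beside a receptor result they move with (Rgs9, Drd1, Adora2a); Gnaq, Plcb1, Adarb1, Htr3b, Htr5b, Htr6 and the remaining cell type markers given by name were chosen after their values were seen. The members and lists were chosen with earlier results of these data known. Mice that share a number across groups are separate animals: their deviations from the group means correlated by -0.04 on average (-0.28 to 0.24 over 24 pairs). Chromatin samples were not used here.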

Additional observations from a re-analysis of the deposited data

Results flagged for a closer look

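In 2 of the 48 sets of 4 mice looked at (10 receptor genes and 2 ratios in 4 groups), 1 mouse stood far from the other 3 of its group; chance alone flags about 1 in 20 such sets, or 2.4 here. Htr3a had 15.6 CPM in vehicle mouse 1, where the nearest mouse of the group had 8.53 CPM. Htr7 had 11 CPM in 48 h mouse 1, where the nearest had 3.68 CPM; without this mouse the log2 fold change of Htr7 at 48 h was -0.89 in place of -0.26.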

How the results depend on the processing

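Of the log2 fold changes of single receptor genes against vehicle, 354 kept direction and side of the threshold when all mice were used. In 14 the call was lost, in 19 a call was gained and 18 turned sign. With 1 mouse left out the numbers were 222, 9, 4 and 5. Lost and gained refer to the adjusted p and not to the size of the fold change. The number of receptor genes called moved as follows, and the cause was not tested where none is named. The share of all genes called in the same fit stands in brackets. At 24 h 3 receptor genes passed (24.2% of all genes). It was 7 with voom (40.3%), 6 with only the groups compared (36.7%), 5 with thinned counts (24.1%), 4 with DESeq2 (30.2%), total counts (23.9%) and library 2 alone (24.1%), 0 with the 18S share (0%) and 0 with the mitochondrial share (1.47%). At 48 h 3 passed (30.1%). It was 6 with only the groups compared (41.5%), 4 with voom (43.4%) and library 1 alone (30.8%), 1 with library 2 alone (29.8%) and 0 with either covariate (0%). At 7 days 0 passed (0%), against 1 with DESeq2 (4.44%) and 1 with no filter (2.62%). For 7 days against 24 h 0 passed (0.00557%), against 1 with duplicateCorrelation over the libraries (6.12%). For any difference among the groups 1 passed (18.8%). It was 5 with voom (39.7%), 4 with no filter (13.7%), 3 with DESeq2 (28.6%), 3 with duplicateCorrelation (30.3%), 2 with total counts (17.9%), 2 with thinned counts (19.0%), 2 with library 1 alone (19.8%), 2 with library 2 alone (19.0%), 0 with the 18S share (0.0279%) and 0 with the mitochondrial share (0.00557%). Group accounted for 75.1% of the variance of the log2 18S share and 53.9% of that of the mitochondrial share, so covariate and group cannot be fully told apart. With a mouse left out it was 2 to 4 genes at 24 h, 1 to 4 genes at 48 h, 0 to 2 genes at 7 days and 1 to 4 genes for any difference.

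Signs turned mainly under the covariates and for genes not called. With the 18S share the log2 fold changes at 24 h were -0.78 for Htr2c, -0.33 for Htr5a, 0.37 for Htr3a and -0.71 for Htr1b, and at 48 h -0.27 for Htr2c, -0.52 for Htr5a, 0.67 for Htr3a, -0.80 for Htr1b and 0.49 for Htr7. With the mitochondrial share they were 0.03 for Htr3a at 24 h, 0.89 for Htr1d, 0.75 for Htr3a, -0.06 for Htr1f and 0.12 for Htr7 at 48 h, and -0.05 for Htr1f at 7 days. With voom Htr7 at 24 h was -0.04 and Htr1f at 7 days -0.01; with total counts, which moved the median of all genes to 0.14, 0.12 and 0.07 in the 3 comparisons with vehicle, Htr1d at 48 h was 0.02. With a mouse left out Htr7 at 24 h ranged from -0.08 to 0.72, Htr1d at 48 h from -0.65 to 0.34 and Htr1f at 7 days from -0.07 to 0.22. The Htr2a to Htr1a log2 ratio ranged from -0.12 to 0.47 at 24 h and from -0.31 to 0.20 at 48 h, and was -0.29 at 48 h with library 2 alone. The Htr2a to Htr2c difference kept its direction with each library alone, with pseudocounts of 0 and 2 and with each mouse left out; with 3 mice against 4 the exact test cannot give a p below 0.0571.

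With the mouse number as a replicate block, 3 receptor genes passed at 24 h (20.4% of all genes), 2 passed at 48 h (26.0%) and 0 passed at 7 days (0%); the block ended the Htr2c call at 48 h (1.16, adjusted p = 0.0749 in edgeR) and no other receptor call. Same-numbered mice are separate animals, and the labels do not say whether the number also marks a shared processing step. Depth limits the genes of few counts: Htr1d had at most 18 counts in a mouse, and its fold changes had wide errors (SE 0.94 at 24 h).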

Other observations

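The strongest relation between receptor genes within groups was that of Htr1f and Htr3a. After the group means were taken from log2 CPM, the Pearson correlation over the 16 mice was -0.89 and Spearman's rho was -0.88: mice with more Htr1f transcript than their group had less Htr3a transcript. By permuting mice within groups (100000 permutations, two-sided) the p-values were 0.000410 for r and 0.000860 for rho, or 0.0184 and 0.0387 after Benjamini-Hochberg adjustment over the 45 pairs of receptor genes, of which this was the only one to pass. Without the 2 mice farthest from the Htr1f median, r was -0.85. The pair of next smallest p, Htr1b and Htr4, had r of 0.65 (permutation p = 0.00336, adjusted 0.0756). The relation was noticed in these data and tested on the same data, and the levels share library and scaling within each mouse. How often pairs of other genes reach such a correlation was not tested, so nothing particular to receptor genes is read from it. Among the 9964 genes compared with Htr2a within groups, the highest correlation was 0.92, that of Gmps. At 7 days, 65.1% of all genes tested split the mice into the same pairs, among them Htr1f and Htr3a in opposite directions.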
